A study of Canis lupus familiaris with 222 samples.

Results

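The normal tissue examined here was mammary tissue taken beside a mammary tumor at surgery, and it was sorted by whether the tumor of the same dog was malignant or benign. Of the 222 RNA-seq libraries of the cohort, 64 came from such adjacent normal tissue, each from a different female dog whose tumor was also sequenced. In the study's clinical table the tumor was malignant in 51 of these dogs and benign in 13. The sample labels gave 48 and 16, because 3 dogs whose tumors are grade 1 carcinomas in the clinical table carry a benign label (CMT-051, CMT-149 and CMT-374). The clinical table was followed here.

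The dogs were client-owned animals with spontaneous tumors, so they differed in age, breed and neuter status, and no treatment was part of the study design. The 51 dogs with a malignant tumor had a median age of 12 years (range 2 to 19), and 33 were intact and 18 neutered. Their tumors comprised 21 simple carcinomas, 20 complex carcinomas, 7 carcinomas in benign mixed tumors, 2 carcinosarcomas and 1 osteosarcoma. By histologic grade, 26 were grade 1, 13 grade 2 and 12 grade 3. Tumor cells in lymphatic vessels or regional lymph nodes, termed lymphatic invasion, were recorded for 10. The 13 dogs with a benign tumor had a median age of 10 years (range 6 to 13), with 9 intact and 4 neutered, and carried 7 simple adenomas, 4 complex adenomas and 2 benign mixed tumors. The labels named 12 breeds among the 51 dogs and 4 among the 13, with mixed dogs counted as a breed. Maltese dogs made up 17 of the 51 and 8 of the 13. How far from the tumor the normal tissue was taken is not given in the sources used here.

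The canine mammary gland consists of ducts and lobules with an inner luminal and an outer myoepithelial cell layer, set in fat and connective tissue, and its secretory genes are switched on and off with the ovarian cycle. A field effect, or field cancerization, means that tissue which looks normal beside a carcinoma already differs from tissue of an unaffected gland. Normal tissue beside benign tumors offers a comparison for this in dogs, although it is not tissue of a healthy gland, and no tissue from dogs without a tumor was analysed here.

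Levels were FPKM values, the fragments of a gene scaled to the length of its transcript and to the mapped fragments of the library, and each gene was known only by its Ensembl identifier. Of the 24580 identifiers, 4480 were listed at 0 in every normal library. The median FPKM of a library over the identifiers tested was between 3.01 and 3.74 in the normal tissue of CMT-105, CMT-538 and CMT-725, all beside malignant tumors. No pair of normal libraries was identical, and the highest correlation between 2 of them was 0.982. Because no table used here pairs identifiers with gene names, the markers of mammary epithelium, fat, blood, immune and tumor cells could not be read, and the tissue label was not checked against them. For the same reason no sequences are shown, and no function can be given for the identifiers named.

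The first question was whether normal mammary tissue beside a malignant tumor differed from that beside a benign tumor. None of the 14609 identifiers that averaged at least 0.5 FPKM was called higher or lower (0%) by limma on log2(FPKM + 1) at an adjusted p under 0.05, and the lowest adjusted p was 0.998. At an unadjusted p under 0.05 there were 403 identifiers (2.76%), 111 higher and 292 lower beside malignant tumors. With malignancy as in the sample labels, where 3 dogs change group, that number was 1461 (10%), still with 0 calls and a lowest adjusted p of 0.489. The median log2 difference over all identifiers was -0.05, with a median standard error of 0.17. For 13176 identifiers (90.2%) the 95% interval of the difference lay within 1 log2 unit of 0, and for the others the interval reached past 1 log2 unit. No identifier had an estimated difference above 1.92 log2 units in either direction, and 67 had one of at least 1.

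The 2 identifiers with the lowest p in each direction and a mean of at least 5 FPKM in the higher group show how far the groups overlapped. ENSCAFG00000000868 ranged from 2.40 to 76.5 FPKM beside malignant tumors, with a median of 14.1, and from 0.555 to 17.6 with a median of 8.99 beside benign tumors. The log2 difference was 0.79 (SE 0.29, adjusted p = 0.998 in limma), and it was 0.56 with surgery year in the fit. ENSCAFG00000011499 had a median of 3.21 FPKM (0.334 to 33.8) beside malignant tumors and 2.13 FPKM (0.588 to 3.69) beside benign tumors. Its highest values all belonged to dogs with malignant tumors, but the lowest value did as well.

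In the other direction, ENSCAFG00000001167 had a median of 9.89 FPKM (6.04 to 19.3) beside malignant and 12.7 FPKM (8.83 to 24.3) beside benign tumors, a log2 difference of -0.35 (SE 0.12, adjusted p = 0.998 in limma). ENSCAFG00000008313 had medians of 8.36 and 10.1 FPKM, with ranges of 4.07 to 14.9 and 7.81 to 18.6. In all 4 identifiers most dogs of one group fell within the range of the other.

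**Figure D1:**
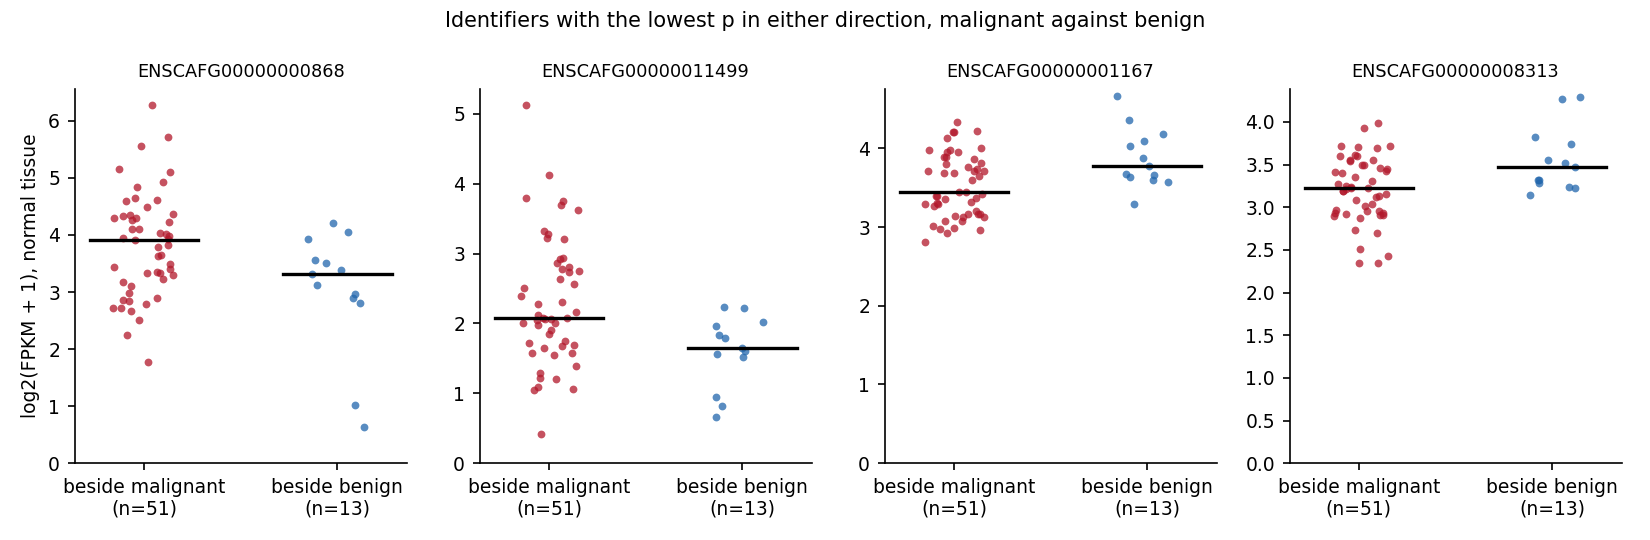
Levels of the 4 identifiers with the lowest p in each direction in normal tissue, as log2(FPKM + 1), for 51 dogs with a malignant and 13 with a benign tumor. Each point is a dog and the bar is the group median, and the groups overlap in every panel.

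The same comparison was then made within narrower groups of tumors. Against the 48 carcinomas alone, with carcinosarcomas and osteosarcoma left out, 0 of 14616 identifiers were called (0%) and 336 had an unadjusted p under 0.05 (2.3%). Among higher identifiers with a mean of at least 5 FPKM beside carcinomas, ENSCAFG00000001397 had the lowest p (log2 difference 1.11, SE 0.41, adjusted p = 1 in limma). It was above 1 FPKM in 35 of 48 dogs with a carcinoma and in 6 of 13 with a benign tumor. For the 12 dogs with a grade 3 tumor against the 13 with a benign tumor, 0 of 14550 were called (0%), and 547 had an unadjusted p under 0.05 (3.76%). For 21 simple carcinomas against 7 simple adenomas, 0 of 14558 were called (0%), with 201 at an unadjusted p under 0.05 (1.38%). A slope over grade 1, 2 and 3 among the malignant gave 0 calls of 14603 (0%) and 497 at an unadjusted p under 0.05 (3.4%).

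Beside grade 3 tumors, ENSCAFG00000026473 had the lowest p among higher identifiers with a mean of at least 5 FPKM there (log2 difference 2.71, SE 0.70, unadjusted p = 0.000608, adjusted p = 1 in limma). It was at least 5.76 FPKM in all 12 dogs with a grade 3 tumor, with a median of 22.7 FPKM, and was listed at 0 in 8 of the 13 dogs with a benign tumor. It was also listed at 0 beside 11 of 26 grade 1 and 9 of 13 grade 2 tumors. Across the 64 normal libraries it was either listed at 0 or at least 5.76 FPKM, and no library lay between. A 0 of this kind can be a failed estimate of the quantification, and its part in the difference was not tested. In 22 dogs the identifier was above 0 only in the normal tissue and in 11 only in the tumor. It was above 0 in both tissues of 14 dogs and in neither of 17. Whether the 2 tissues were related was not tested.

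Among identifiers lower beside grade 3 tumors, with a mean of at least 5 FPKM beside benign tumors, ENSCAFG00000007135 had the lowest p. Its median was 23.5 FPKM (18.1 to 35.3) against 37.9 FPKM (23.3 to 52.5) beside benign tumors (log2 difference -0.53, SE 0.13, adjusted p = 1 in limma). Beside simple adenomas, ENSCAFG00000022704 was above 1 FPKM in 4 of 7 dogs, against 3 of 21 beside simple carcinomas, where it was listed at 0 in the other 18 (adjusted p = 1 in limma).

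Single values for a whole library were compared next, since a shift spread over many genes need not pass a test gene by gene. Each normal library was placed on the line from the mean of the other dogs' normal tissues, at 0, to the mean of the other dogs' tumors, at 1. Normal tissue beside malignant tumors stood at 0.0208 ± 0.51 (SD, n = 51) on this tumor axis and that beside benign tumors at 0.0525 ± 0.606 (SD, n = 13). The difference of -0.0317 (SE 0.183, two-sided permutation test of the difference in means, p = 0.847) was smaller than the spread between dogs. By grade the means were 0.0467 at grade 1, -0.00948 at grade 2 and -0.00247 at grade 3, each with an SD of at least 0.503.

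Individual dogs covered most of the axis. The normal libraries ranged from -0.877 to 1.14, and 14 of 64 stood past the midpoint of 0.5, 10 of 51 beside malignant and 4 of 13 beside benign tumors. Of the 157 tumors placed in the same way, 8 stood below the midpoint. In bulk tissue, fewer cells of a type and less RNA per cell cannot be told apart, so a position on the axis does not separate a change within cells from a change in the mixture of cells.

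On the line from the mean benign tumor, at 0, to the mean malignant tumor, at 1, normal tissue beside malignant tumors stood at 0.488 ± 0.68 (SD, n = 51) and that beside benign tumors at 0.441 ± 0.718 (SD, n = 13). The difference was 0.0461 (SE 0.221, two-sided permutation test, p = 0.83). The mean was 0.287 beside grade 1, 0.601 beside grade 2 and 0.799 beside grade 3 tumors, with SDs of 0.593, 0.79 and 0.635. No test over the grades was run on these positions. Placed in the same way, benign tumors stood at 0.295 ± 0.75 (SD, n = 35) and malignant tumors at 0.89 ± 0.815 (SD, n = 122). No normal library was used to draw this line, so a position on it is not a degree of malignancy of the normal tissue.

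**Figure D2:**
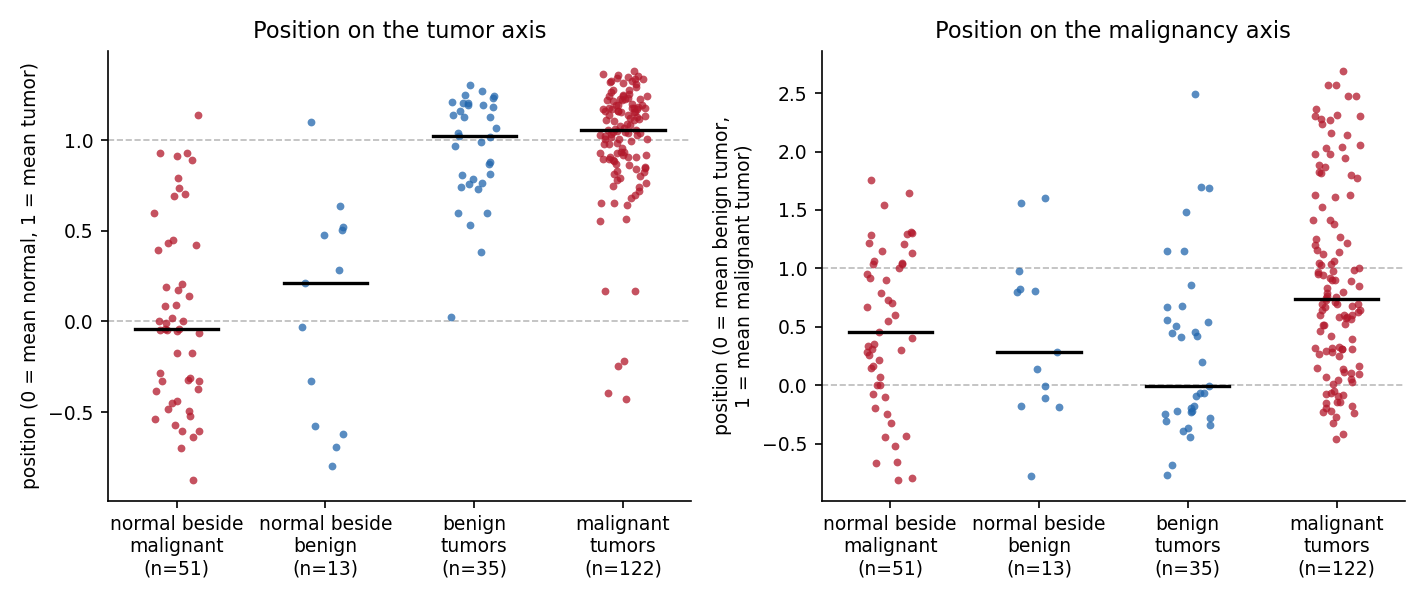
Positions of normal libraries and tumors on the tumor axis (left, 0 the mean normal tissue and 1 the mean tumor) and on the malignancy axis (right, 0 the mean benign and 1 the mean malignant tumor), with each dog left out of its own means. Points are libraries and bars are medians, and the 2 groups of normal tissue overlap over nearly their whole range on both axes.

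The median distance of a library to the other 63 normal tissues, as 1 less the correlation, was 0.154 ± 0.0268 (SD, n = 51) beside malignant and 0.143 ± 0.0226 (SD, n = 13) beside benign tumors (two-sided permutation test, p = 0.164). A normal tissue correlated more with its own tumor than with the median tumor of another dog in 40 of 51 dogs with malignant and 11 of 13 with benign tumors. The mean excess was 0.0297 ± 0.0353 (SD, n = 51) and 0.0339 ± 0.0379 (SD, n = 13; two-sided permutation test of the difference in means, p = 0.706). This difference was smaller than the spread between dogs. The median FPKM of a library was 6.39 ± 1.08 (SD, n = 51) and 6.62 ± 0.666 (SD, n = 13; two-sided permutation test, p = 0.462). After adjustment over the 7 values compared, which include the first 2 principal components, the lowest p was 0.768.

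Genes that separated malignant from benign tumors were then read in the normal tissue. Among 122 malignant and 35 benign tumors, 23 of 14584 identifiers were called higher (0.158%) and 78 lower (0.535%) in malignant tumors, 0.693% in all. Of the 78 lower in malignant tumors, 52 were also lower in normal tissue beside malignant tumors (66.7%), with a median log2 difference of -0.12, and none was called. Over all 14609 identifiers tested in normal tissue 62.9% were lower, with a median of -0.05. Of the 23 higher in malignant tumors, 22 could be tested in normal tissue, and 9 were higher and 13 lower there, with a median of -0.02 against 0.33 in the tumors. These tumors included those of the same 64 dogs.

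Among dogs with malignant tumors, normal tissue beside the 10 tumors with lymphatic invasion was compared with that beside the 41 without. Here 2 of 14603 identifiers were called, both higher with invasion (0.0137%), and 1010 had an unadjusted p under 0.05 (6.92%), 719 of them higher. Leaving out 1 invaded dog moved the 1010, counted in both directions, to between 595, without CMT-743, and 1413, and it was 653 without CMT-340. ENSCAFG00000000080 was 111.8 FPKM in the normal tissue of CMT-439, 36.1 in CMT-743, 24.4 in CMT-644, 6.34 in CMT-340 and 1.97 in CMT-581. In the other 5 invaded dogs it was between 0.0923 and 0.870 FPKM. Without invasion it ranged from 0.0636 to 1.80 FPKM, with a median of 0.262, so 5 invaded dogs stood above all 41 and 5 within their range. The log2 difference was 1.95 (SE 0.36, adjusted p = 0.0154 in limma).

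ENSCAFG00000001478 was high in the same 4 dogs, at 27.9 FPKM in CMT-439, 13.3 in CMT-743, 11.1 in CMT-644 and 5.63 in CMT-340, followed by 1.42 in CMT-344 and 0.314 in CMT-581. It was listed at 0 in 3 invaded dogs and in 25 of the 41 without invasion, where the highest value was 0.270 FPKM. The log2 difference was 1.67 (SE 0.28, adjusted p = 0.00326 in limma). In the tumors of these 4 dogs both identifiers were lower than in their normal tissue. They were at 0.167 to 1.65 FPKM for ENSCAFG00000000080 and at most 0.473 FPKM for ENSCAFG00000001478. The 1.65 FPKM, in CMT-743, was the highest among the 16 malignant tumors with invasion. The tumor of CMT-344 went the other way for ENSCAFG00000001478, at 7.46 FPKM, the highest among the 10 invaded dogs' tumors and above its own normal tissue. Among all 122 malignant tumors, 16 of them with invasion, neither passed the threshold (adjusted p = 0.451 and 0.15 in limma).

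**Figure D3:**
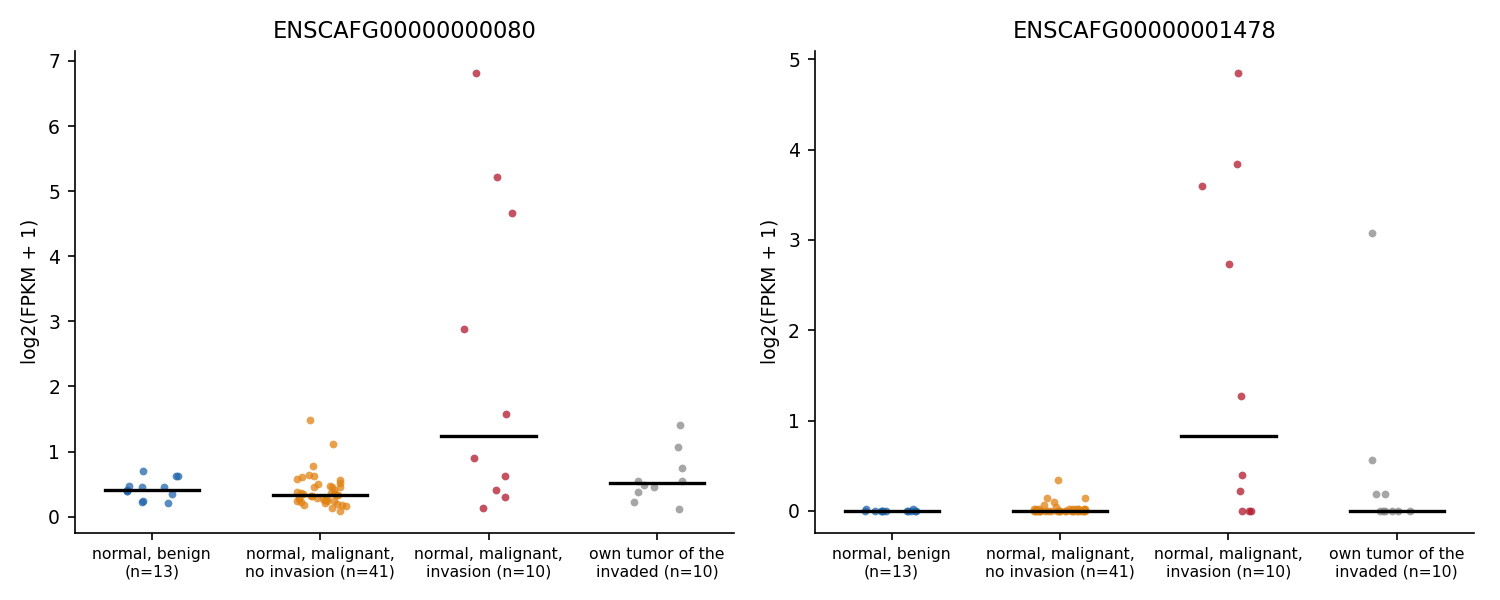
The 2 identifiers called for lymphatic invasion, as log2(FPKM + 1), in normal tissue beside 13 benign tumors, 41 malignant tumors without invasion and 10 with it, and in the tumors of those 10 dogs. Points are dogs and bars medians. In both panels the same 4 invaded dogs have the highest values in normal tissue, and their own tumors are lower (the high tumor for ENSCAFG00000001478 is that of CMT-344, another dog).

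These calls rest on few dogs. Both identifiers stayed called when any one of 6 invaded dogs was left out, but ENSCAFG00000000080 passed no longer without CMT-340, CMT-439, CMT-644 or CMT-743 (adjusted p between 0.0679 and 0.175 in limma), nor with age in the fit (log2 difference 1.93, adjusted p = 0.0515). All 10 invaded dogs had grade 3 tumors, none was a Maltese, and their median age was 14 years, so invasion and grade cannot be told apart except through the 2 grade 3 dogs without invasion. Within grade 3 neither identifier was called (log2 differences 1.98 and 1.62, adjusted p = 1 in limma).

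No identifier was called lower with invasion. The lowest p in that direction among identifiers of at least 5 FPKM were those of ENSCAFG00000007832, with a median of 9.02 FPKM (2.85 to 14.6) with invasion and 16.8 FPKM (4.49 to 32.95) without (log2 difference -0.80, SE 0.22, adjusted p = 0.555 in limma), and of ENSCAFG00000001166, with medians of 6.33 and 11.1 FPKM (adjusted p = 0.696 in limma).

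Traits of the dogs other than the tumor were fitted in the same way. Neutered against intact dogs gave 0 calls of 14609 (0%) and 725 at an unadjusted p under 0.05 (4.96%), of which 577 were higher in neutered dogs. The widest difference among the named identifiers was that of ENSCAFG00000002889, above 100 FPKM in 26 of 42 intact and 4 of 22 neutered dogs, with medians of 673 and 9.25 FPKM (log2 difference -3.95, SE 1.16, unadjusted p = 0.00117, adjusted p = 0.897 in limma). A slope over age gave 0 calls of 14609 (0%) and 279 at an unadjusted p under 0.05 (1.91%).

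The largest variation among the normal libraries was read from principal components, whose relation to neuter status or age was not tested. The first principal component held 20.5% and the second 18.8% of the variance of log2(FPKM + 1). Mean first component scores were 1.09 ± 43.1 (SD, n = 51) beside malignant and -4.30 ± 45.8 (SD, n = 13) beside benign tumors (two-sided permutation test, p = 0.692), and the second component gave p = 0.22 in the same test. At its low end the first component was led by ENSCAFG00000007025, which ranged from 0 to 10171 FPKM, with 30 dogs above 100 and 20 below 1 FPKM. At the high end it was led by ENSCAFG00000002889, from 0.341 to 40978 FPKM, with 30 dogs above 100 FPKM, and by ENSCAFG00000008950, from 0.428 to 4183 FPKM. ENSCAFG00000002889 and ENSCAFG00000008950 also led the second component, whose other end was led by ENSCAFG00000013694 (0.125 to 5125 FPKM). Dogs on and off for these identifiers occurred beside both kinds of tumor. ENSCAFG00000002889 was above 100 FPKM in 23 of 51 dogs with malignant and 7 of 13 with benign tumors.

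The first component moved with the year of surgery, which was noticed in the plot of component scores and then fitted. Over the 64 dogs its correlation with the year was r = -0.448 (permutation p = 0.00027, adjusted over 3 relations p = 0.000405) and rho = -0.427 (permutation p = 0.00035), and without the 2 most distant dogs r was -0.431. The tumor axis position moved as well (r = -0.494, permutation p = 4e-05, adjusted p = 0.00012, rho = -0.483, permutation p = 7e-05, r without 2 dogs -0.436). Its median fell from 0.450 in the 13 dogs of 2016 to -0.0407 in the 40 of 2017 and -0.437 in the 11 of 2018. Surgery year is not a record of when the libraries were made, and whether RNA storage, sequencing runs or the dogs themselves differed between years was not tested.

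**Figure D4:**
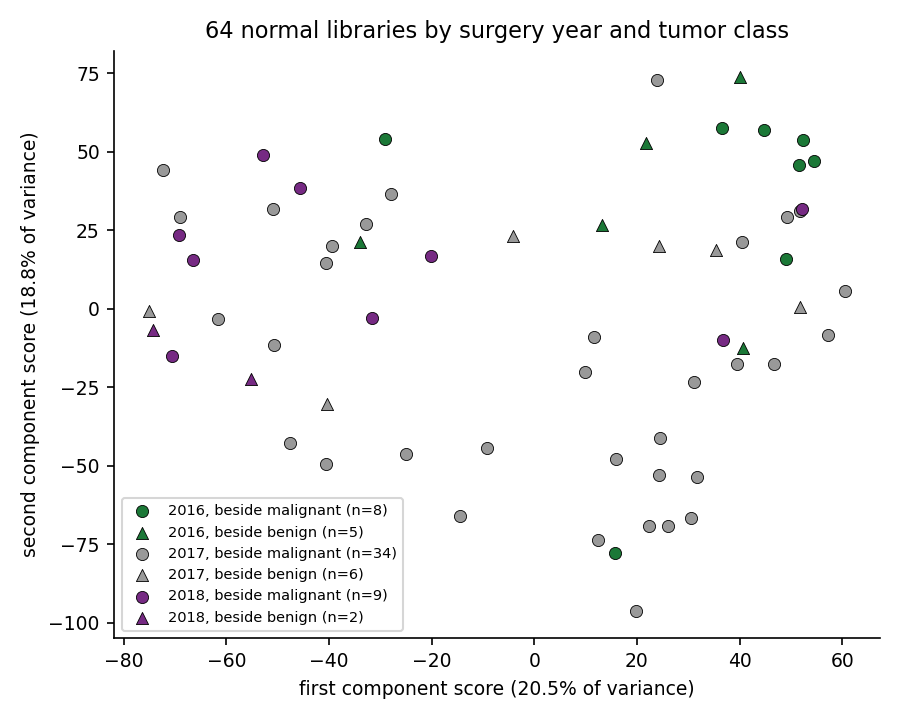
Scores of the 64 normal libraries on the first (x) and second (y) principal component of log2(FPKM + 1), with colors for the surgery year and circles or triangles for a malignant or benign tumor. Libraries of 2016 lie mostly to the right and those of 2018 mostly to the left, and triangles are spread among the circles.

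A slope over the surgery year called 1932 of 14609 identifiers (13.2%), 1106 rising (7.57%) and 826 falling (5.65%), and 4319 had an unadjusted p under 0.05 (29.6%). The balance turned with quantile normalization, where 37.7% of the called identifiers rose and 62.3% fell, against 57.2% rising here. With malignancy in the same fit 1759 were called. ENSCAFG00000007025 had a median of 0.703 FPKM in 2016, 8.36 in 2017 and 1439 in 2018, with 3 of 13, 18 of 40 and 9 of 11 dogs above 100 FPKM (3.28 log2 units a year, SE 0.85, adjusted p = 0.00958 in limma). ENSCAFG00000031641 rose with it, from a median of 0.251 to 2.68 and 764 FPKM (adjusted p = 0.012 in limma). ENSCAFG00000002907 fell, from a median of 11.0 FPKM in 2016 to 0.165 and 0.315 FPKM (-1.69 log2 units a year, SE 0.56, adjusted p = 0.0351 in limma), and ENSCAFG00000030947 was listed at 0 in 5 of 13, 31 of 40 and 9 of 11 dogs (adjusted p = 0.0371 in limma). With the mapping rate in the fit 926 identifiers were called, and these 4 did not pass.

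The surgery year was also fitted in 94 tumors of dogs without a normal library, among them that of CMT-351, which the clinical table does not list. In these tumors 1300 of 14487 identifiers had a called slope over the surgery year. Of the identifiers called in normal tissue 1781 could be tested there, and 68.3% had the same sign, against 58.7% over all identifiers tested in both. Over all identifiers in these tumors 8.97% were called, in either direction. A call of the same sign as in normal tissue was made for 175 (9.83%), a share not counted in the same way. ENSCAFG00000030947 was among them, with a slope of -1.36 log2 units a year (SE 0.47, adjusted p = 0.0487 in limma) against -1.47 in normal tissue. The other 3 did not pass, with slopes of 0.28 for ENSCAFG00000007025, -0.03 for ENSCAFG00000031641 and 0.32 for ENSCAFG00000002907 (adjusted p = 0.613, 0.948 and 0.764 in limma). The called slopes in these tumors were mostly negative, 399 rising and 901 falling. In the 64 tumors of the dogs with a normal library, which share the dogs and years with the normal tissue, 274 of 14561 were called (1.88%), 229 rising and 45 falling. There 83.6% of 1837 identifiers had the sign of the normal tissue, and 100 were called with it (5.44%).

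The groups of the main comparison were unevenly spread over the years, with 8, 34 and 9 dogs with malignant and 5, 6 and 2 with benign tumors in 2016, 2017 and 2018. Within years the tumor axis positions beside malignant less benign differed by 0.17 in 2016 (exact permutation test, two-sided, p = 0.573), -0.0751 in 2017 (p = 0.712) and 0.487 in 2018 (p = 0.2). Within 2016 and within 2017 no identifier was called in the gene comparison, with 168 and 488 at an unadjusted p under 0.05, and in limma with surgery year as a covariate none was called and 250 had an unadjusted p under 0.05.

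**Figure D5:**
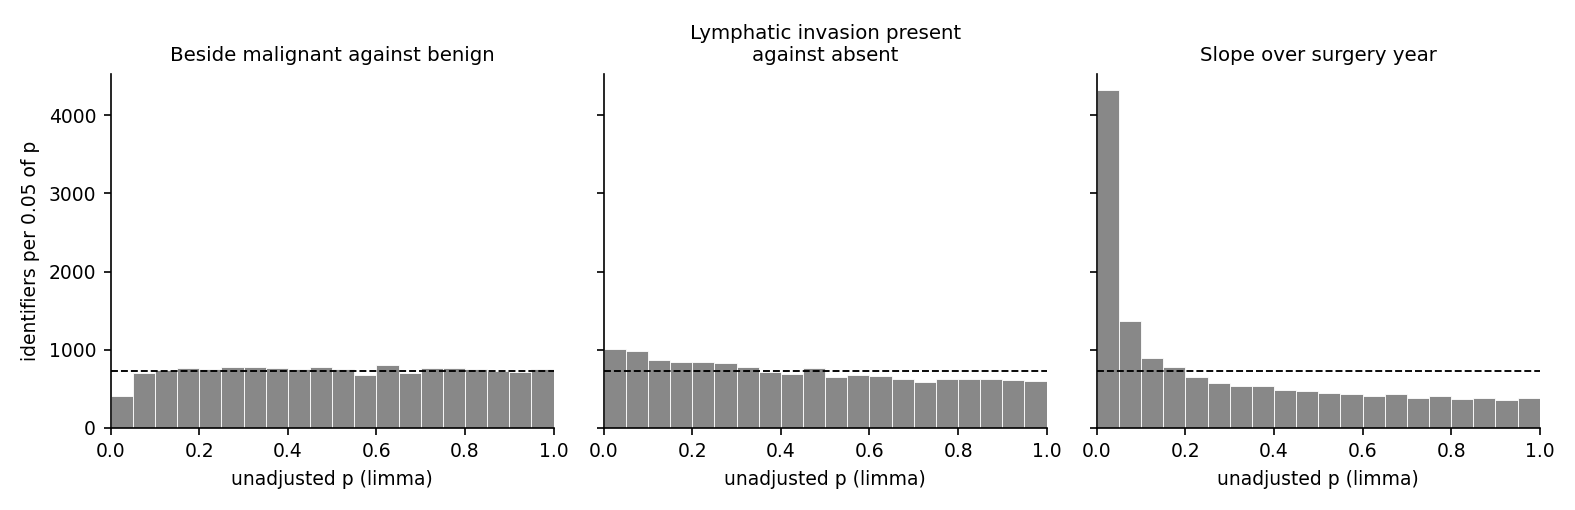
Unadjusted p-values of limma in bins of 0.05 for 3 comparisons of normal tissue, with the number of identifiers on the y axis and a dashed line at an even spread over the bins. The lowest bin holds 403 identifiers for malignant against benign, 1010 for lymphatic invasion and 4319 for surgery year.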

How the data were processed

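Total RNA of tissue kept in RNAlater was enriched for poly(A) RNA, and libraries were sequenced. Reads were aligned by the authors to the genome build CanFam3.1 (TopHat2 2.0.9, Ensembl annotation), and they deposited FPKM values of Cufflinks 2.1.1, with 1 column per library. No read counts were used, so the depth behind a value was not examined, and the number of dogs sets the precision.

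Tissue was taken from the labels, and malignancy, histology, grade and lymphatic invasion from the study's clinical table. Mapping rates of the study served as a covariate only. The members and lists were chosen with earlier results of these data known. Identifiers with a mean of at least 0.5 FPKM in the libraries fitted were log2-transformed with a pseudocount of 1 and tested in limma (3.58.1, run in R 4.3.3), with the prior variance following the mean level and Benjamini-Hochberg adjustment over all identifiers tested, and a fold change on this scale understates the change of low genes. A call needed an adjusted p under 0.05. Each library is a different dog. Library values were compared by a two-sided permutation test of the difference in means with 100000 resamples, or exactly where a group had fewer than 10 dogs, using Python 3.11.15 and numpy 2.4.6. The tests were tested on simulated data.

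Named identifiers were the 2 in each direction with the largest log2 difference among the called ones with a mean of at least 5 FPKM in the higher group, or, with fewer than 2 called, those with the lowest p under the same limit. For components they were those with the largest loading. The surgery year comparison, the grade 3 split of invasion, the leave-one-out fits and the within-year values were added after the data were seen. Cell type marker lists were not analysed here, because the RefSeq gene table (UU_Cfam_GSD_1.0) holds no Ensembl identifiers. Alternatives were a pseudocount of 0.1, no filter or a filter of 5 FPKM, quantile normalization, a robust fit, covariates, the labels' malignancy, and subsets of dogs. For the main comparison a log2 difference of at least 1 was also required, and library values were also permuted within surgery years.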

Additional observations from a re-analysis of the deposited data

Results flagged for a closer look

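Within groups of 4 to 10 dogs, each of the 8 named identifiers was checked in FPKM for a dog far from the others, and 3 were found. Chance gives about 1 in 20 groups where values are normally distributed, which does not hold for skewed FPKM of identifiers named for their differences. On the log2(FPKM + 1) scale of the fits the gaps were 0.24, 0.21 and 0.25 of the range, in the order given here, and all were below the critical values. In the normal tissue of CMT-439, beside a tumor with lymphatic invasion, ENSCAFG00000000080 was 111.8 FPKM against 36.1 in the next dog, a gap of 0.678 of the group's range. ENSCAFG00000001478 was 27.9 FPKM in the same dog against 13.3 in the next, a gap of 0.525 of the range. The critical value for 10 dogs is 0.466. Without CMT-439 the log2 difference of ENSCAFG00000001478 was 1.31 (adjusted p = 0.0184 in limma) and that of ENSCAFG00000000080 1.45 (adjusted p = 0.0843 in limma). In CMT-776, beside a simple adenoma, ENSCAFG00000021721 was 36.8 FPKM against 14.3 in the next dog, a gap of 0.613 of the range (critical value 0.568 for 7 dogs). It was listed at 0 in 4 of the 7 dogs of that group.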

How the results depend on the processing

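In normal tissue beside malignant against benign tumors, 0 identifiers were called under 16 of 17 alternatives. Among the 16 was a required log2 difference of at least 1, which could only give 0 because the main fit had 0 calls. The number at an unadjusted p under 0.05 in limma lay between 149 and 1461, the highest with malignancy as in the sample labels. Among Maltese dogs alone 1 was called, higher beside malignant tumors. The comparisons of carcinomas, grade 3, grade, simple tumors, neuter status and age had 0 calls under every alternative run. For lymphatic invasion 2 calls became 0 with a filter of 5 FPKM, which removed both identifiers, 1 with age as a covariate, and 1 within grade 3 that was neither of the 2 (ENSCAFG00000030071, lower), and leaving out each invaded dog gave 1 to 3. For the surgery year 1932 calls became 926 with the mapping rate and 349 in Maltese dogs, where fewer dogs were fitted, and up to 2690 without the 3 libraries of low median FPKM. With quantile normalization 37.7% of the surgery year calls were rising, against 57.2% without it. Of 47 alternatives for library values, 46 kept the direction, and the difference on the malignancy axis became -0.0141 with carcinomas only. Permutation within surgery years is counted among the 46, but it uses the same differences, so their direction could not change. None of the 47 passed (adjusted p from 0.239 to 0.972, two-sided permutation test). The causes were not tested. No paired analysis was possible because each comparison is between different dogs. With 13 benign dogs, and with read numbers not examined, small differences were not detectable.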

Other observations

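The identifiers below were chosen after their values were seen. In Maltese dogs alone, ENSCAFG00000025805 was called higher beside malignant tumors (log2 difference 3.19, SE 0.48, adjusted p = 0.0062 in limma). It lay between 4.81 and 51.6 FPKM in all 17 Maltese dogs with a malignant tumor and was listed at 0 in 5 of the 8 with a benign tumor, where the highest value was 8.68 FPKM. Over all breeds it was listed at 0 in 10 of 51 and 5 of 13 dogs, and values beside benign tumors reached 87.3 FPKM.

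ENSCAFG00000012742 was called for lymphatic invasion without the 3 libraries of low median FPKM (log2 difference 0.87, SE 0.17, adjusted p = 0.0145 in limma), and also without CMT-105 or without CMT-613. Its median was 7.20 FPKM (2.81 to 8.81) in the 10 invaded dogs, 3.15 FPKM (1.23 to 7.38) in the 41 without invasion and 3.39 FPKM (1.34 to 11.2) beside benign tumors. ENSCAFG00000024815 was called with surgery year as a covariate (log2 difference 0.85, SE 0.17, adjusted p = 0.0417 in limma), with medians of 0.885 and 0.133 FPKM.

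Within grade 3, ENSCAFG00000030071 was called lower with invasion (adjusted p = 5.65e-07 in limma). It was listed at 0 in all 10 invaded dogs and at 15.3 and 30.7 FPKM in the 2 without invasion, and it was listed at 0 in 37 of the 41 dogs without invasion of any grade.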
